A study of Mus musculus with 11 samples.

Results

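The aryl hydrocarbon receptor and its closest working partners were followed as 7 genes: the receptor Ahr, its partner Arnt, its repressors Ahrr and Tiparp, and the target genes Nqo1, Cyp1a1 and Cyp1b1. They were taken by gene symbol from the 21860 genes of the deposited expression table, and were chosen with earlier results of these data known. The counts of members called are therefore a description. All 7 were found once each and passed the filter that left 13095 genes for testing. Bulk RNA sequencing had been done on mouse bone marrow monocytes that were cultured for 6 days to become Langerhans cell-like cells and sorted as CD11b-low EpCAM+ cells. All 11 libraries came from cultures with GM-CSF (20 ng/ml). There was 1 library with Jag1 and no further addition, called Jag1 only. The other 10 had TGFβ (5 ng/ml) and IL-34 (8 µg/ml): 2 with nothing more (TGFβ/IL-34), 2 with FICZ (TGFβ/IL-34/FICZ), 3 with Jag1 (TGFβ/IL-34/Jag1) and 3 with both (TGFβ/IL-34/Jag1/FICZ). C57BL/6 mice are named in the study's methods but not tied to these cultures, and age and FICZ dose were not given in the sources used here. Jag1, a Notch ligand, was presented by OP9 stromal cells made to express it. The labels give OP9 cells for all 11 libraries, whereas the protocols also describe monocytes plated without them, and stroma genes were nearly absent from the 4 libraries without Jag1 (summed level 12.8 to 38.0, against 391 to 4640.1 with it). Whether the cultures without Jag1 held OP9 cells is therefore not settled. The effects of Jag1 and of stromal cells cannot be told apart here, nor can that of plating density, since the protocols give fewer monocytes per well on OP9 cells than without them.

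Ahr is a ligand-activated transcription factor that waits in the cytoplasm bound to chaperones. When a ligand binds, it moves to the nucleus, pairs with Arnt and binds short DNA sequences known as dioxin response elements. FICZ, a small molecule formed from tryptophan, is such a ligand and is described in the study as an agonist, although the series record calls it an antagonist. The cytochrome P450 enzymes Cyp1a1 and Cyp1b1 are classical targets and can break the ligand down, Nqo1 is a quinone reductase that is also under control of the stress factor Nrf2, and Ahrr and Tiparp are induced targets that dampen the receptor. Ahr is known to be abundant in Langerhans cells of the skin.

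The DNA around the gene starts was searched for the receptor's letters, to set beside the levels. The core letters GCGTG were searched on both strands in the 300-base RefSeq promoter windows (250 bases before to 50 after the start, table build GRCm38.p6), which held 6 of the 7 members. Ahr had no entry. GCGTG was present in 5 of the 6 windows and in 32.4% of all 32851 windows, and Nqo1 was the member without it. The longer letters TNGCGTG, which contain the core, were present in 1 of the 6 windows (Ahrr) and in 5.07% of all windows. Wider GRCm39 windows, added after the data were seen, ran from 1500 bases before to 500 bases after the canonical start. There TNGCGTG was present in 23.9% of 21761 genes. Cyp1a1 had 7 such matches, a number that 0.0046% of genes reached, Cyp1a1 included. Cyp1b1 and Ahrr had 2 each, which 3.94% of genes reached, Tiparp and Nqo1 had 1 each and Arnt had none.

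The matches of the 3 genes with more than 1 are given here in GRCm39 with 10 bases on either side and the 7 matched letters in capitals. Each is read 5′ to 3′ on the strand where the letters stand, and its distance is counted from the canonical start to the first matched base in the direction of the gene.
Cyp1a1, 630 before, chr9:57603502-57603528, minus strand: catctgaactTGGCGTGtctaactcaa
Cyp1a1, 454 before, chr9:57603678-57603704, minus strand: agggccgggtTTGCGTGcgatgctcgg
Cyp1a1, 309 before, chr9:57603823-57603849, plus strand: ctcccccagcTAGCGTGacagcactgg
Cyp1a1, 232 before, chr9:57603900-57603926, minus strand: tgccccggagTTGCGTGagaagagcct
Cyp1a1, 143 before, chr9:57603989-57604015, minus strand: ttcctgaggcTAGCGTGcgtaagcctg
Cyp1a1, 72 before, chr9:57604060-57604086, plus strand: tcctgctgtcTCGCGTGgatccttcct
Cyp1a1, 261 after, chr9:57604393-57604419, minus strand: gagtccaagcTCGCGTGagaagcgcaa
Cyp1b1, 831 before, chr17:80023347-80023373, plus strand: gagctgtgccTTGCGTGcgccgcttct
Cyp1b1, 812 before, chr17:80023328-80023354, plus strand: cgcctcccccTTGCGTGcggagctgtg
Ahrr, 361 before, chr13:74440807-74440833, plus strand: aaccaagactTAGCGTGttcctccttt
Ahrr, 17 before, chr13:74440463-74440489, minus strand: gcggggcggcTCGCGTGctggggtggg
The RefSeq start of Cyp1a1 lies 754 bases after the canonical start used here, and the last 4 Cyp1a1 sites lie in an exon of an annotated Cyp1a1 transcript. No binding was measured, so these are matches of letters only.

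**Figure D1:**
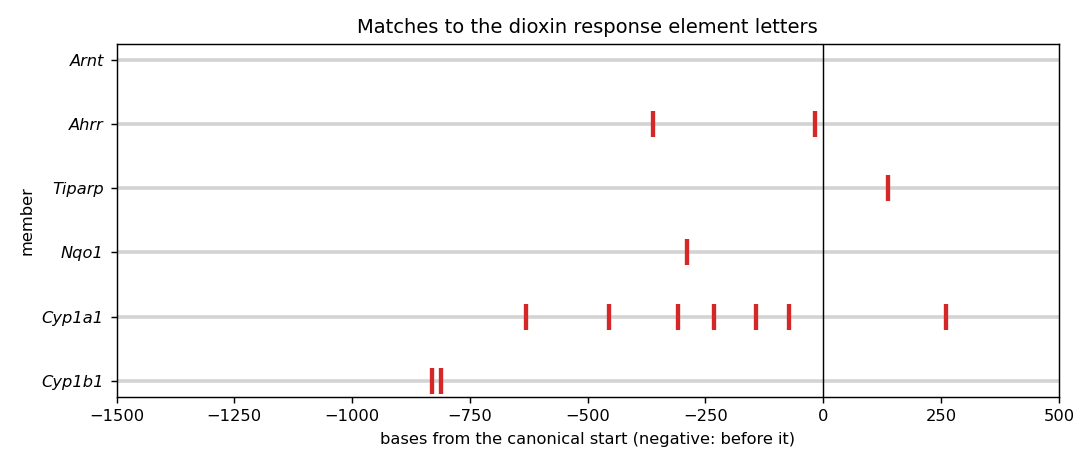
Positions of the matches to the longer element letters in the 6 members, as bases from the canonical start (x axis, negative before it), 1 row per member and 1 tick per match. Cyp1a1 has 7 ticks, 6 of them within 630 bases before the start, and Cyp1b1 has a pair at 831 and 812 bases before it.

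Before the members, the libraries themselves were compared. Their DESeq2-normalised counts summed to between 21310445 and 27845052 per library, and 13453 to 14498 genes were above 0. Replicate 1 of TGFβ/IL-34/FICZ stood apart. In it, genes with a longest transcript of at least 6000 bases (n = 3159) had a median deviation from the other libraries that lay 1.74 log2 units below that of genes of at most 1500 bases (n = 714), whereas in the other 10 libraries this difference was −0.0815 to 0.168. Every result on FICZ without Jag1 rests on that library and 1 other. By codes in the sample descriptions, read as flow cells, the library with low long genes shared its flow cell only with replicate 1 of TGFβ/IL-34/Jag1/FICZ. The remaining libraries, among them all those without FICZ, carried the code of another. The 8 Langerhans cell-like identity genes, among them Epcam and Cd207, were above 0 in every library, although Cd207 was at 6.21 to 132 normalised counts in the 5 libraries with FICZ and at 154 to 1784 in the 5 with TGFβ/IL-34 and no FICZ. Of the 10 OP9 stroma genes summed for the levels given at the start, Dcn and Lum were at 0 in all 11 libraries. The 5 granulocyte progenitor genes (Elane, Mpo, Prtn3, Ctsg and Ms4a3) summed to 75.0 to 464 without FICZ and to 2221 to 7344 with it, and the 5 classical monocyte genes to 172 to 344 in TGFβ/IL-34/Jag1 and 3884 to 4577 in TGFβ/IL-34/Jag1/FICZ. The 5 mast cell and basophil genes summed to 1774 to 2937 and 9146 to 12117 in the same groups, with Fcer1a at 0 in every library. Of the granulocyte progenitor genes, Mpo did not follow the sum, at group means of 4.72 and 3.95 with FICZ and 1.56 to 27.2 without it. Fewer cells of a type and less RNA per cell cannot be told apart in bulk RNA. The labels do not say whether replicates came from separate mice, so the p-values measure the spread between these libraries, which may be technical.

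The receptor was expressed throughout. Ahr (ENSMUSG00000019256, chr12:35547973-35585057, minus strand, GRCm39) had 2917 normalised counts in Jag1 only, 5561 and 5170.4 in TGFβ/IL-34, and 916 and 3085 in TGFβ/IL-34/FICZ. It had 8693, 8262 and 11356 in TGFβ/IL-34/Jag1 and 3071, 3203 and 5132 in TGFβ/IL-34/Jag1/FICZ. Every TGFβ/IL-34/Jag1 library was above every other library, and every library with FICZ was below every library with TGFβ/IL-34 and no FICZ. The group means ran from TGFβ/IL-34/Jag1 (9437 ± 1676, SD, n = 3) through TGFβ/IL-34 alone (5366 ± 276, SD, n = 2), both additions (3802 ± 1153, SD, n = 3) and Jag1 only down to TGFβ/IL-34/FICZ (2000.5 ± 1533, SD, n = 2), and of neighbours in this order only the last 2 overlapped. The lower TGFβ/IL-34/FICZ value of 916 came from the library in which long genes were low.

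Arnt (ENSMUSG00000015522, chr3:95341365-95404551, plus strand), the receptor's partner in binding the response elements, varied least. It had 1406 normalised counts in Jag1 only, 1494 and 1399 in TGFβ/IL-34, 761 and 1369 in TGFβ/IL-34/FICZ, 1652, 1163 and 1523 in TGFβ/IL-34/Jag1, and 1356, 1112 and 1377 in TGFβ/IL-34/Jag1/FICZ. Only the 761 of replicate 1 of TGFβ/IL-34/FICZ left the range of the other libraries. In TGFβ/IL-34, Ahr exceeded Arnt by 5.62 and 5.59 times per kilobase of all annotated exons and by 3.18 and 3.16 times per kilobase of the longest transcript.

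Ahrr (ENSMUSG00000021575, chr13:74359237-74440462, minus strand), which competes with Ahr for Arnt, had 1234 normalised counts in Jag1 only. It had 4282 and 4099 in TGFβ/IL-34, 3002 and 5044 in TGFβ/IL-34/FICZ, 2289.8, 1991 and 2539 in TGFβ/IL-34/Jag1, and 5094, 4383 and 5146 in TGFβ/IL-34/Jag1/FICZ. Tiparp (ENSMUSG00000034640, chr3:65435320-65463365, plus strand) encodes a mono-ADP-ribosyltransferase that modifies the receptor. It had 590.1 normalised counts in Jag1 only, 2755 and 2652 in TGFβ/IL-34, 2979.6 and 3688 in TGFβ/IL-34/FICZ, 1176, 965 and 1614 in TGFβ/IL-34/Jag1, and 2551, 2103 and 2543 in TGFβ/IL-34/Jag1/FICZ. Both repressors were thus lowest in the 4 libraries with Jag1 and no FICZ, the reverse of Ahr in the 3 of these with TGFβ and IL-34. The level of Ahr per kilobase of exon divided by that of Ahrr was 1.99 and 1.93 in TGFβ/IL-34, 5.8 to 6.84 in TGFβ/IL-34/Jag1, 0.467 and 0.935 in TGFβ/IL-34/FICZ, and 0.922 to 1.52 in TGFβ/IL-34/Jag1/FICZ. The size of this ratio depends on the length used: per kilobase of the longest transcript it was 1.19 and 1.16, 3.48 to 4.1, 0.28 and 0.56, and 0.552 to 0.913 in the same groups, so which gene had the higher level with both additions is not settled.

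Nqo1 (ENSMUSG00000003849, chr8:108113835-108129934, minus strand) had 43.5 normalised counts in Jag1 only, 158 and 173 in TGFβ/IL-34, 568 and 348 in TGFβ/IL-34/FICZ, 31.8, 11.4 and 4.93 in TGFβ/IL-34/Jag1, and 414, 271 and 163 in TGFβ/IL-34/Jag1/FICZ. The FICZ groups overlapped each other, and TGFβ/IL-34/Jag1/FICZ overlapped TGFβ/IL-34.

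Cyp1a1 (ENSMUSG00000032315, chr9:57595211-57611107, plus strand) had 3.02 normalised counts in Jag1 only, 68.1 and 100.1 in TGFβ/IL-34, 2079 and 1933 in TGFβ/IL-34/FICZ, 0, 0 and 0.985 in TGFβ/IL-34/Jag1, and 644, 671 and 604 in TGFβ/IL-34/Jag1/FICZ. The worth of 1 read, taken from low values of genes with 1 transcript, was 0.895 to 1.15 normalised counts, so the TGFβ/IL-34/Jag1 libraries held about 1 Cyp1a1 read in all. A count of 0 in such a library allows up to about 3 reads, or 2.95 to 3.41 normalised counts in this group, so Jag1 only and TGFβ/IL-34/Jag1 were not separated. The other 3 groups did not overlap each other or these.

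Cyp1b1 (ENSMUSG00000024087, chr17:80008966-80022532, minus strand) had 40.9 normalised counts in Jag1 only, 2570.2 and 2556 in TGFβ/IL-34, and 3780.1 and 7391 in TGFβ/IL-34/FICZ. It had 1.04, 4.76 and 2.80 in TGFβ/IL-34/Jag1 and 2868, 2996 and 2384 in TGFβ/IL-34/Jag1/FICZ. Without FICZ the level was near that of a few reads in every TGFβ/IL-34/Jag1 library and 2556 or more in each TGFβ/IL-34 library. Per kilobase of exon, Cyp1b1 exceeded Cyp1a1 by 20.4 and 13.8 times in TGFβ/IL-34. This ratio was 0.981 and 2.06 in TGFβ/IL-34/FICZ and 2.4, 2.41 and 2.13 in TGFβ/IL-34/Jag1/FICZ. It was 7.29 in Jag1 only and 1.53 in replicate 3 of TGFβ/IL-34/Jag1, both resting on a few Cyp1a1 reads, and could not be formed in the other 2 libraries of that group. The 0.981 came from the library with low long genes. Per kilobase of the longest transcript the ratio was 24.6 and 16.6 in TGFβ/IL-34 and 1.18 and 2.49 in TGFβ/IL-34/FICZ. Which gene was higher in that library is therefore not settled.

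**Figure D2:**
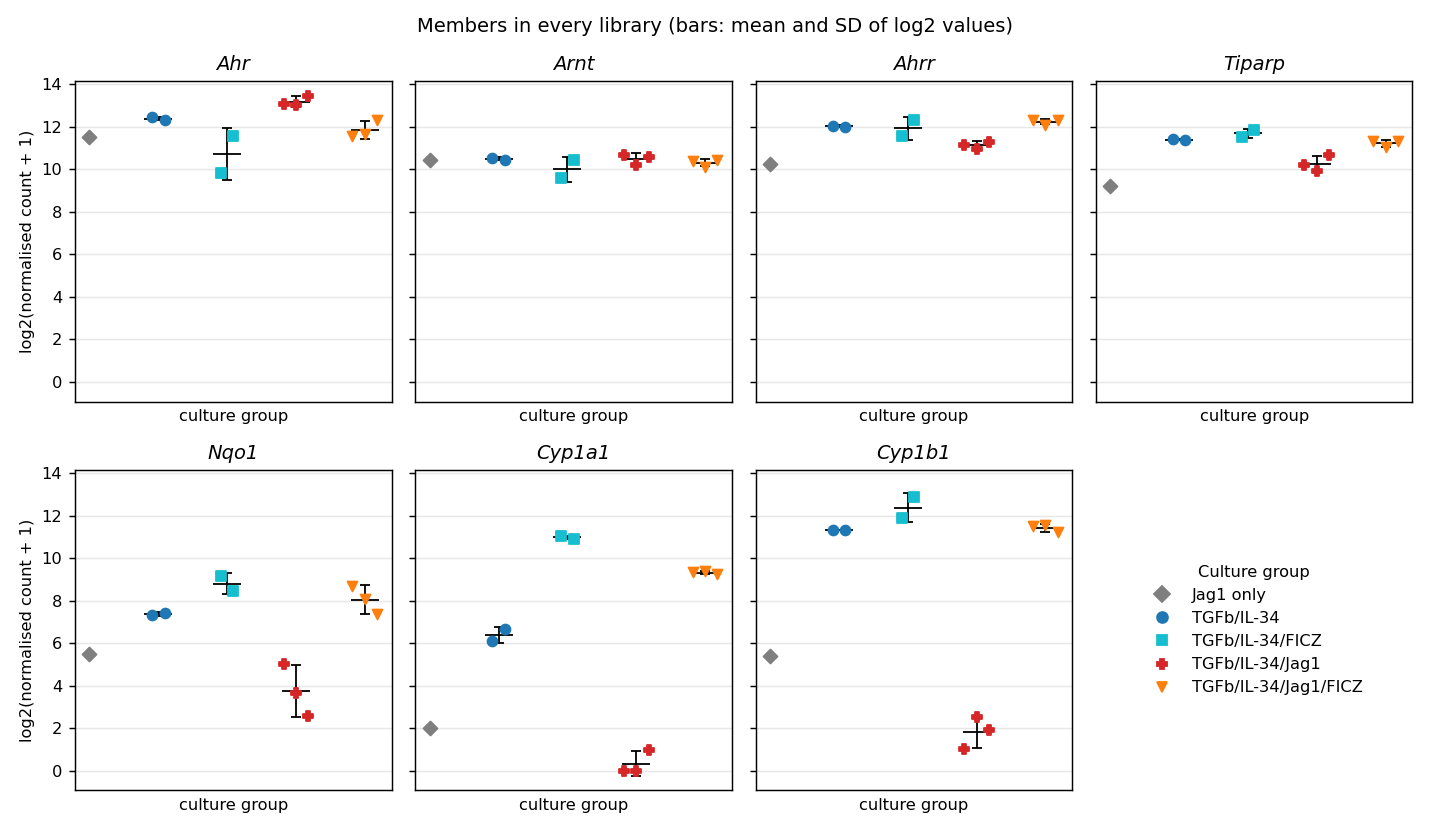
Log2(normalised count + 1) of each of the 7 members (panels) in the 11 libraries, 1 point per library, coloured by culture group, with the mean and SD of log2 values where n is 2 or 3. Cyp1a1 and Cyp1b1 fall to the bottom of the scale in TGFβ/IL-34/Jag1 (0 to 0.985 and 1.04 to 4.76 normalised counts), whereas Ahr is at its top there.

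Receptor and target levels were set side by side in each library, per kilobase of exon. The 3 libraries with the most Ahr per kilobase (1336 to 1837) were those with the least Cyp1b1 (0.144 to 0.658), and the library with the least Ahr (148, replicate 1 of TGFβ/IL-34/FICZ) had 522. At nearly equal Ahr, Cyp1b1 differed widely. Jag1 only had 472 of Ahr and 5.65 of Cyp1b1 per kilobase, and replicate 1 of TGFβ/IL-34/Jag1/FICZ had 497 of Ahr and 396 of Cyp1b1.

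**Figure D3:**
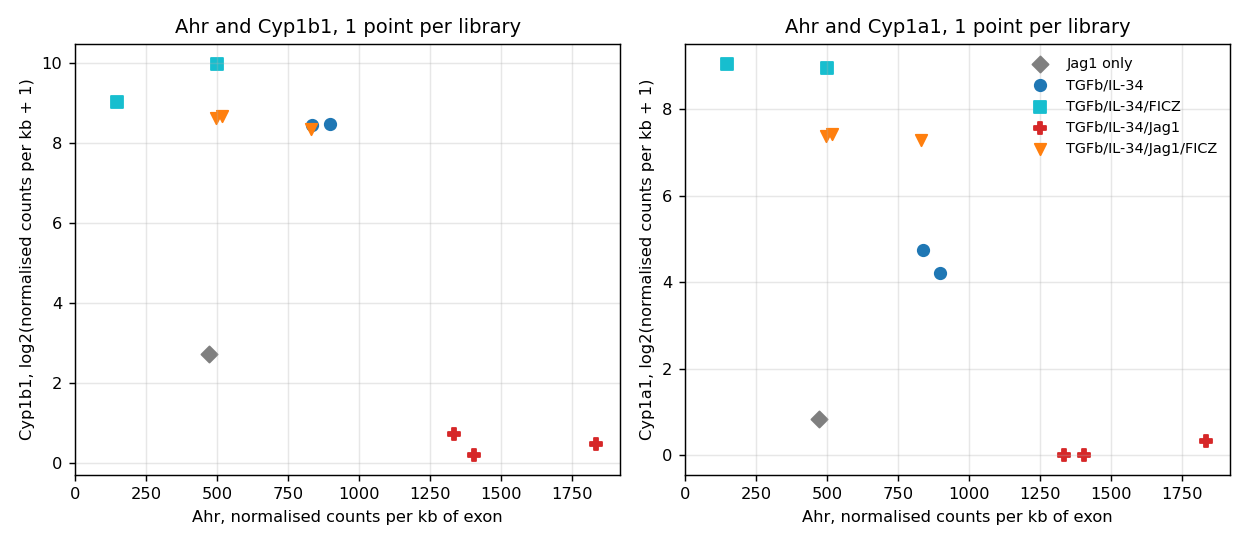
Ahr (x axis, normalised counts per kb of exon) against Cyp1b1 (left) and Cyp1a1 (right), both as log2(normalised counts per kb + 1), 1 point per library. The 3 TGFβ/IL-34/Jag1 libraries lie at the lower right, with Ahr of 1336 to 1837 and both P450 genes near 0, and the FICZ libraries at the upper left.

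The first comparison set cultures with Jag1 against those without it where no FICZ was added, and so concerned the targets' basal levels. All 3 targets and both repressors fell, and neither Ahr nor Arnt passed the test. Cyp1b1 fell by 9.50 on the log2(normalised count + 1) scale (SE 0.412, adjusted p 5.553e-06), Cyp1a1 fell by 6.06 (SE 0.392, adjusted p 4.108e-05) and Nqo1 fell by 3.63 (SE 0.641, adjusted p 0.00808, limma with Benjamini-Hochberg adjustment over all genes tested). Tiparp fell by 1.14 (SE 0.221, adjusted p 0.013) and Ahrr fell by 0.89 (SE 0.219, adjusted p 0.0388). For these 5 genes no TGFβ/IL-34/Jag1 library reached the level of a TGFβ/IL-34 library. That is a description, since the share of all genes separated in this way is not given here. Ahr differed by 0.80 (95% interval −0.145 to 1.75, adjusted p 0.367), with all 3 Jag1 libraries above both others, and Arnt by −0.02 (95% interval −0.584 to 0.553). Counted in reads, Cyp1a1 was 240-fold higher per library in TGFβ/IL-34 than in TGFβ/IL-34/Jag1, with an exact 95% counting interval of 42.4 to 9510 that covers counting error only. Within the experiment that both groups shared by every record, the differences were −9.40 for Cyp1b1, −5.67 for Cyp1a1, −4.87 for Nqo1, −0.72 for Tiparp and −0.69 for Ahrr.

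The 5 members called, all lower, compare with 864 of all 13095 genes called in either direction (6.6%), of which 518 were lower (3.96%) and 346 higher (2.64%). Cyp1a1 and Cyp1b1 were the 2 members still called without replicate 1 or without replicate 2 of TGFβ/IL-34, with adjusted p of 0.0705 and 0.0953 for Nqo1, 0.118 and 0.121 for Tiparp and 0.243 and 0.236 for Ahrr. Ahrr also lost the call without each TGFβ/IL-34/Jag1 replicate (adjusted p 0.0599 to 0.112), with the replicate block (0.0622) and in 3 other settings, whereas Ahr gained it with only these groups in the fit (0.0259) and with array weights (0.034). The stroma genes were present in these Jag1 libraries (summed level 391 to 1058), where Cyp1b1 was at most 4.76 normalised counts. The classical monocyte sum was 1554 to 3539 in TGFβ/IL-34 and 172 to 344 in TGFβ/IL-34/Jag1. In the same groups the mast cell and basophil sum was 6061 to 6302 and 1774 to 2937, and the granulocyte progenitor sum 296 to 464 and 75.0 to 255. Not all genes of these sums fell. Mean Gata2 (4280 and 579) and Cpa3 (694 and 114) were lower with Jag1, whereas Kit was higher (1169 and 1716) and Mcpt8 near equal (39.6 and 34.8). Elane (148 and 4.68), Prtn3 and Ms4a3 were lower, whereas Mpo (1.56 and 6.52) and Ctsg (13.7 and 21.1) were higher. The part that stromal cells, plating density and these other cells had in the lower members was not tested.

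In cultures without Jag1, Cyp1a1 alone of the 7 passed the test for FICZ. From 68.1 and 100.1 it rose to 2079 and 1933 normalised counts, which is 4.59 on the log2 scale (SE 0.429, adjusted p 0.00994). This was 1 of 3 genes called among all tested (0.0229%). Nqo1 (1.43, SE 0.703, adjusted p 0.294) and Cyp1b1 (1.04, SE 0.451, adjusted p 0.285) were higher in both libraries with FICZ than in both without, but did not pass. Tiparp differed by 0.29 (95% interval −0.244 to 0.833) and Ahrr by −0.11 (−0.64 to 0.427). Ahr was lower in both libraries with FICZ (log2 fold change −1.67, SE 0.466, unadjusted p 0.00483 by limma, adjusted p 0.285), and without replicate 1, the library in which long genes were low, its difference was −0.80. Cyp1a1 lost the call without replicate 1 (adjusted p 0.293) or 2 (0.116) of TGFβ/IL-34, without the library with low long genes (0.0971) and with the replicate block (0.0588), although its difference stayed at 4.31 to 4.86 over all alternatives. Without replicate 2 of TGFβ/IL-34/FICZ, only the library with low long genes is left in that group. Ahr then differed by −2.55, Arnt by −0.93 and Ahrr by −0.48, differences that rest on that library. The records of experiment codes disagree on replicate 1 of TGFβ/IL-34. By its description it shares a code with replicate 2 of TGFβ/IL-34/FICZ, and the differences between these libraries were 4.81 for Cyp1a1, 1.52 for Cyp1b1, 1.14 for Nqo1 and −0.85 for Ahr. By the authors' sample sheet it shares one with the library with low long genes, and the differences were 4.91, 0.56, 1.84 and −2.60.

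With Jag1 present, all 3 targets and both repressors were higher with FICZ, and Ahr was lower. Cyp1b1 rose by 9.59 (SE 0.368, adjusted p 8.655e-07), Cyp1a1 rose by 8.99 (SE 0.35, adjusted p 8.655e-07) and Nqo1 rose by 4.30 (SE 0.574, adjusted p 0.000682) on the log2 scale. The repressors rose too, Ahrr by 1.10 (SE 0.196, adjusted p 0.00332) and Tiparp by 0.96 (SE 0.198, adjusted p 0.0072). Ahr itself fell by 1.34 (SE 0.38, adjusted p 0.0355), and Arnt differed by −0.16 (95% interval −0.673 to 0.344, adjusted p 0.703). In reads, Cyp1a1 was 1820-fold higher per library with FICZ, with an exact 95% counting interval of 327 to 72000.0, since it rests on 1 read without FICZ.

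Of the 7 members, 5 were thus called higher, against 1433 of all genes (10.9%), and 1 lower, against 879 (6.71%), or 6 against 2312 in either direction (17.7%). The replicates of these groups share experiment codes by number. For the 6 called members the groups did not overlap, which fixes the direction within each of the 3 experiments. The differences within experiments are therefore given for their size only. The log2 difference of Cyp1b1 was 10.46, 9.02 and 9.29, that of Cyp1a1 9.33, 9.39 and 8.25, and that of Nqo1 3.66, 4.45 and 4.79. Ahrr was higher by 1.15, 1.14 and 1.02 and Tiparp by 1.12, 1.12 and 0.655, whereas Ahr was lower in each, with differences of −1.50, −1.37 and −1.15. The calls of the 5 higher members held in every alternative run. Ahr lost its call without any TGFβ/IL-34/Jag1 replicate (adjusted p 0.0812, 0.0696 and 0.119 without replicates 1, 2 and 3), without replicate 1 (0.125) or 2 (0.128) of the cultures with both additions, and when no filter was applied (0.0716).

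Other cell markers moved in the same comparison, the classical monocyte and the mast cell and basophil sums as given with the libraries. The stroma sum was 736, 1760 and 4640.1 in replicates 1, 2 and 3 of TGFβ/IL-34/Jag1/FICZ, where Cyp1b1 was 2868, 2996 and 2384. The granulocyte progenitor sum was 75.0 to 255 without FICZ and 4424 to 7344 with it. The part that stromal cells and these other cells had in the result was not tested.

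**Figure D4:**
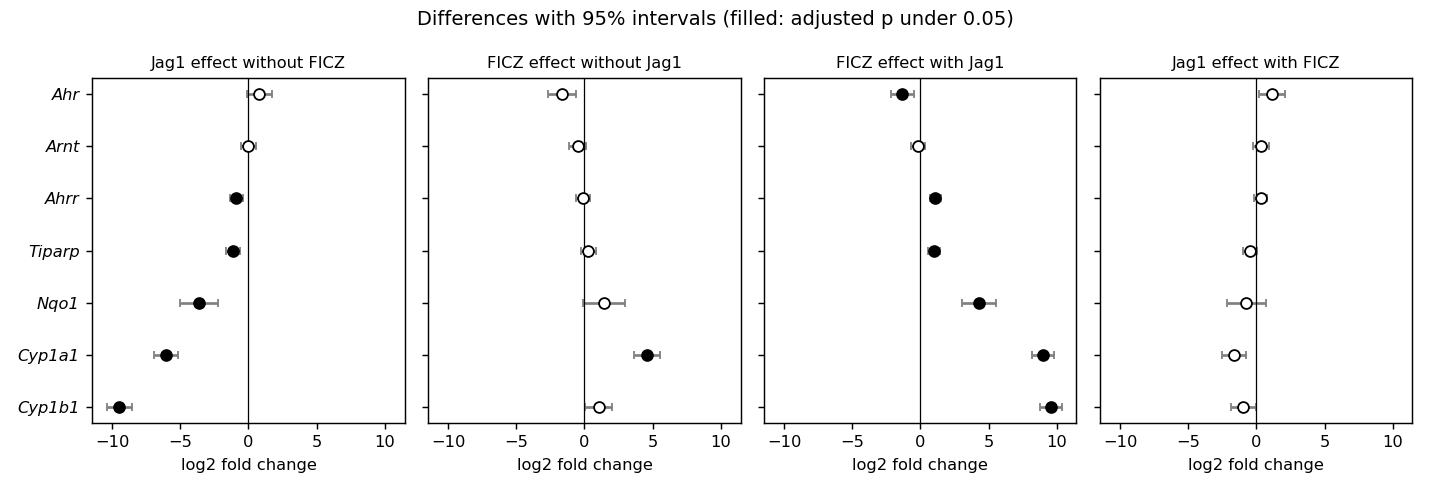
Log2 fold change (x axis) of the 7 members in 4 comparisons (panels), with 95% intervals from limma and filled points where the adjusted p was under 0.05. Cyp1b1 and Cyp1a1 span −9.50 to 9.59 in the panels of Jag1 without FICZ and FICZ with Jag1, where Arnt stays at −0.02 and −0.16.

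When cultures with both additions were set against those with neither, 1 member was called, Cyp1a1, which rose by 2.94 (SE 0.392, adjusted p 0.00456), against 587 of all genes (4.48%). Cyp1b1 was at 2749 ± 323 normalised counts (SD, n = 3) with both additions and 2563 ± 9.90 (SD, n = 2) with neither, a difference of 0.09 (95% interval −0.822 to 1.01). Nqo1 (0.67), Ahrr (0.21), Tiparp (−0.18), Arnt (−0.18) and Ahr (−0.54) did not pass either, with adjusted p of 0.608 to 0.811. Cyp1a1 lost the call without replicate 1 of TGFβ/IL-34 (adjusted p 0.0802), and Ahr gained it with array weights (0.0479). This comparison shares its libraries with the others, and FICZ with Jag1 and Jag1 without FICZ share the TGFβ/IL-34/Jag1 libraries.

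Jag1 in the presence of FICZ changed no member by the limma test, against 264 of all genes (2.02%). At an unadjusted limma p under 0.05 there were 3, Cyp1a1, Ahr and Cyp1b1. The share of all genes at that level is not given here, so this count is a description. Cyp1a1 was lower in all 3 libraries with Jag1 and FICZ than in both with FICZ alone (log2 fold change −1.65, 95% interval −2.52 to −0.778, adjusted p 0.0649), and so was Cyp1b1 (−0.95, 95% interval −1.87 to −0.0339, adjusted p 0.206). In the 2 experiments shared by these groups the differences were −1.69 and −1.52 for Cyp1a1 and −0.40 and −1.30 for Cyp1b1. Ahr differed by 1.14 (adjusted p 0.169), by 1.74 and 0.05 in these experiments, and by 0.26 without replicate 1 of TGFβ/IL-34/FICZ. Cyp1a1 passed with a pseudocount of 4 (adjusted p 0.0222). Leaving out replicate 2 of TGFβ/IL-34/FICZ leaves the library with low long genes as the only one of its group. The differences were then −1.70 for Cyp1a1, 2.01 for Ahr, 0.70 for Ahrr and 0.75 for Arnt.

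The difference between the FICZ effects in the presence and absence of the Notch ligand was tested itself, as an interaction term. Cyp1b1 (8.55, SE 0.582, adjusted p 0.00048) and Cyp1a1 (4.41, SE 0.554, adjusted p 0.0082) passed, 2 members against 182 of all genes (1.39%). For both, the FICZ difference was greater with Jag1 on the log2 scale. In normalised counts the rise of the means was not greater with Jag1, but for Cyp1b1 this rests on 1 library. Cyp1b1 was at 3780.1 in replicate 1 of TGFβ/IL-34/FICZ, the library with low long genes, and at 7391 in replicate 2. From replicate 1 alone its rise without Jag1 would be smaller than that with Jag1. With FICZ, mean Cyp1a1 went from 84.1 to 2006 without Jag1 and from 0.328 to 639 with it. Mean Cyp1b1 went from 2563 to 5585 and from 2.87 to 2749. Ahrr (1.21, adjusted p 0.1), Nqo1 (2.88, adjusted p 0.156) and Tiparp (0.67, adjusted p 0.275) did not pass, nor did Arnt (0.34) and Ahr (0.33), with adjusted p of 0.586 and 0.752. Nqo1 passed with the replicate block (0.0496). Cyp1a1 lost the call with array weights (0.156) and without replicate 2 of TGFβ/IL-34 (0.0787) or of the cultures with both additions (0.0517), and its interaction was 2.69 with a pseudocount of 4, whereas Cyp1b1 passed in all settings (highest adjusted p 0.00916). With replicate 1 as the lone TGFβ/IL-34/FICZ library, the interaction was 1.21 for Ahr, 0.76 for Arnt and 1.58 for Ahrr.

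The single Jag1 only library shows the members without TGFβ and IL-34. It has no replicate of its own, its spread was assumed equal to that of the rest, and what follows rests on that 1 library. Against it, TGFβ/IL-34/Jag1 had less Cyp1b1 (−3.56, SE 0.521, adjusted p 0.00192) and more Tiparp (1.05, SE 0.28, adjusted p 0.0285). The test called 3 members against 2207 of all genes (16.9%), but the third, Cyp1a1, was at about 3 reads in Jag1 only and 1 read or none in each TGFβ/IL-34/Jag1 library, which is too few to read a difference from. Tiparp lost it without replicate 3 (0.0514) and in 3 other settings (0.0529 to 0.0638). Ahr (1.68, adjusted p 0.0586) and Ahrr (0.87, adjusted p 0.0561) were higher in all 3 TGFβ/IL-34/Jag1 libraries without passing, and Nqo1 (−1.73) and Arnt (0.02) had adjusted p of 0.179 and 0.972. With the replicate block, 1 member passed, Cyp1b1.

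The remaining genes of the pathway were described from lists chosen by known role. Of the 8 chaperone and turnover genes that hold or remove the receptor, 2 rose with FICZ in the presence of Jag1, where 10.9% of all genes tested rose and 6.71% fell. Hsp90aa1, the Hsp90 chaperone itself, rose by 1.22 (adjusted p 0.000715). Its mean was 3449.5 ± 162 without and 8053 ± 931 with FICZ (SD, n = 3 each). Ddb1, a part of a ubiquitin ligase that the receptor joins, rose by 0.50 (adjusted p 0.0307) and lost the call when any 1 of the 6 libraries compared was left out (highest adjusted p 0.155). With Jag1 in the absence of FICZ, 1 of the 8 was lower (3.96% of all genes), the kinase Src (−0.80, adjusted p 0.0307), which also lost the call without any 1 of the 5 libraries compared (highest adjusted p 0.338). The median log2 fold change of the list was 0.12 in the first comparison and 0.0418 in the second, against −0.00828 and −0.00409 over all genes tested.

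Among 9 tested relatives of Ahr and Arnt of the bHLH-PAS family, 2 rose and 1 fell with FICZ in the presence of Jag1, against 10.9% and 6.71% of all genes. The median of the 9 was −0.224. Arnt2, a paralogue of Arnt, was at 0 to 1.73 normalised counts in TGFβ/IL-34/Jag1 and 47.7 to 66.9 in TGFβ/IL-34/Jag1/FICZ (4.95, adjusted p 0.00058). It was listed at 0 in both libraries of TGFβ/IL-34 and was at 75.4 in Jag1 only. Npas2, a clock factor, rose by 2.50 (adjusted p 0.0481) and lost the call in 8 settings and without 5 of the 6 libraries, all except replicate 1 of TGFβ/IL-34/Jag1 (highest adjusted p 0.182). Epas1, a hypoxia factor, fell by 2.13 with FICZ (adjusted p 0.0313) and rose by 2.91 with Jag1 in its absence (adjusted p 0.0276), and the first call was lost without any 1 of 5 libraries, all except replicate 3 of TGFβ/IL-34/Jag1/FICZ (highest adjusted p 0.118). The second was lost without either library of TGFβ/IL-34 and without replicate 1 or 3 of TGFβ/IL-34/Jag1 (highest adjusted p 0.295).

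Of 18 tested genes known as Ahr targets in other tissues, 2 rose and 1 fell with Jag1 in the absence of FICZ, with a median of 0.118, against 2.64% and 3.96% of all genes. These were the cytokine gene Il1b (1.88), the transcription factor gene Prdm1 (0.99) and the purine enzyme gene Xdh (−0.90), and each lost the call without either library of TGFβ/IL-34 and without replicate 1 or 3 of TGFβ/IL-34/Jag1, Prdm1 also without replicate 2 (highest adjusted p 0.28, 0.303 and 0.23). With FICZ in the presence of Jag1, 6 rose and 2 fell, with a median of 0.298, against 10.9% and 6.71% of all genes. Serpinb2, a protease inhibitor, rose from 3.70 ± 3.88 to 326 ± 86.9 (log2 fold change 6.56, adjusted p 0.00018). The tryptophan-degrading enzymes rose, Ido1 from 28.4 ± 19.9 to 303 ± 64.1 (adjusted p 0.000628) and Ido2 from 7.77 ± 8.76 to 114 ± 25.6 (4.23, adjusted p 0.00182). Scin, an actin-severing protein, rose from 3613 ± 1146 to 31038 ± 4679 (3.14, adjusted p 6.12e-05), with n = 3 and SD for each. Stc2, a secreted glycoprotein, rose by 2.72 (adjusted p 0.0149) and lost the call without replicate 2 or 3 of TGFβ/IL-34/Jag1 or replicate 1 of TGFβ/IL-34/Jag1/FICZ (highest adjusted p 0.0699). The remaining 3 called were, named after their values were seen, Xdh, which rose by 1.43 (adjusted p 0.000652), the transcription factor gene Irf4, which fell by 0.72 (adjusted p 0.0198), and Nfe2l2, which encodes Nrf2 and fell by 1.21 (adjusted p 0.00199).

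In the list of 9 tested genes of tryptophan uptake and breakdown, from which natural receptor ligands arise, Ido1 and Ido2 were the 2 called with FICZ in the presence of Jag1 (17.7% of all genes), and none was called with Jag1 in its absence (medians 0.243 and −0.034). Of the 12 Nrf2 target genes, 2 fell with Jag1 in the absence of FICZ (3.96% of all genes; list median −0.0473). Gclm, of glutathione synthesis, fell from 2485 ± 112 (SD, n = 2) to 958 ± 217 (SD, n = 3, adjusted p 0.00323, 0.0589 without replicate 2 of TGFβ/IL-34) and Osgin1, an oxidative stress growth inhibitor, fell by 2.01 (adjusted p 0.00139). With FICZ in the presence of Jag1, 4 rose and 1 fell, against 10.9% and 6.71% of all genes and with a median of −0.0121. Me1 (1.68), the cystine carrier gene Slc7a11 (1.56), Osgin1 (1.19) and Gsr (0.68) rose, and Nfe2l2 fell. Gclm, at 958 ± 217 and 932 ± 81.0 (SD, n = 3 each), differed by −0.02, whereas Nqo1 rose by 4.30. Gsr lost the call without replicate 2 or 3 of TGFβ/IL-34/Jag1/FICZ (highest adjusted p 0.0513).

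The other cytochrome P450 genes numbered 99 in the table, of which 61 were at 0 in every library and 16 were tested. Cyp11a1, which carries out the first step of steroid synthesis, had the pattern of Cyp1b1 in part. It fell by 2.84 with Jag1 (842 ± 120.3 to 119 ± 29.7, adjusted p 0.00018), rose by 2.27 with FICZ in its absence (adjusted p 0.0449) and rose by 5.38 with FICZ in the presence of Jag1, to 4916 ± 613 (adjusted p 8.655e-07). Its call for FICZ in the absence of Jag1 was lost without any 1 of the 4 libraries except replicate 2 of TGFβ/IL-34/FICZ and in 7 other settings (highest adjusted p 0.759). Cyp4f18, a fatty acid hydroxylase, fell by 4.14 (adjusted p 0.00769, 0.11 without replicate 2 of TGFβ/IL-34) and rose by 4.46 (adjusted p 0.00111). Cyp2s1 (−1.56), Cyp4v3 (−1.09) and Cyp27a1 (−0.88) fell with FICZ in the presence of Jag1, and each lost the call without replicate 1 or 2 of TGFβ/IL-34/Jag1/FICZ (highest adjusted p 0.159, 0.0697 and 0.0706). Replicate 2 of TGFβ/IL-34/Jag1 did the same for Cyp27a1, replicate 3 for Cyp4v3 and replicates 1 and 3 for Cyp2s1. Of the 16, 2 rose and 3 fell with FICZ where Jag1 was present (10.9% and 6.71% of all genes) and 2 fell with Jag1 in the absence of FICZ (3.96%), with medians of −0.28 and 0.0226. None of the 6 electron donors that P450 enzymes need, such as Por, was called in any of the 7 comparisons, and none of the 10 relatives of Tiparp was called in either of these comparisons, where their medians were −0.186 and −0.0889.

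**Figure D5:**
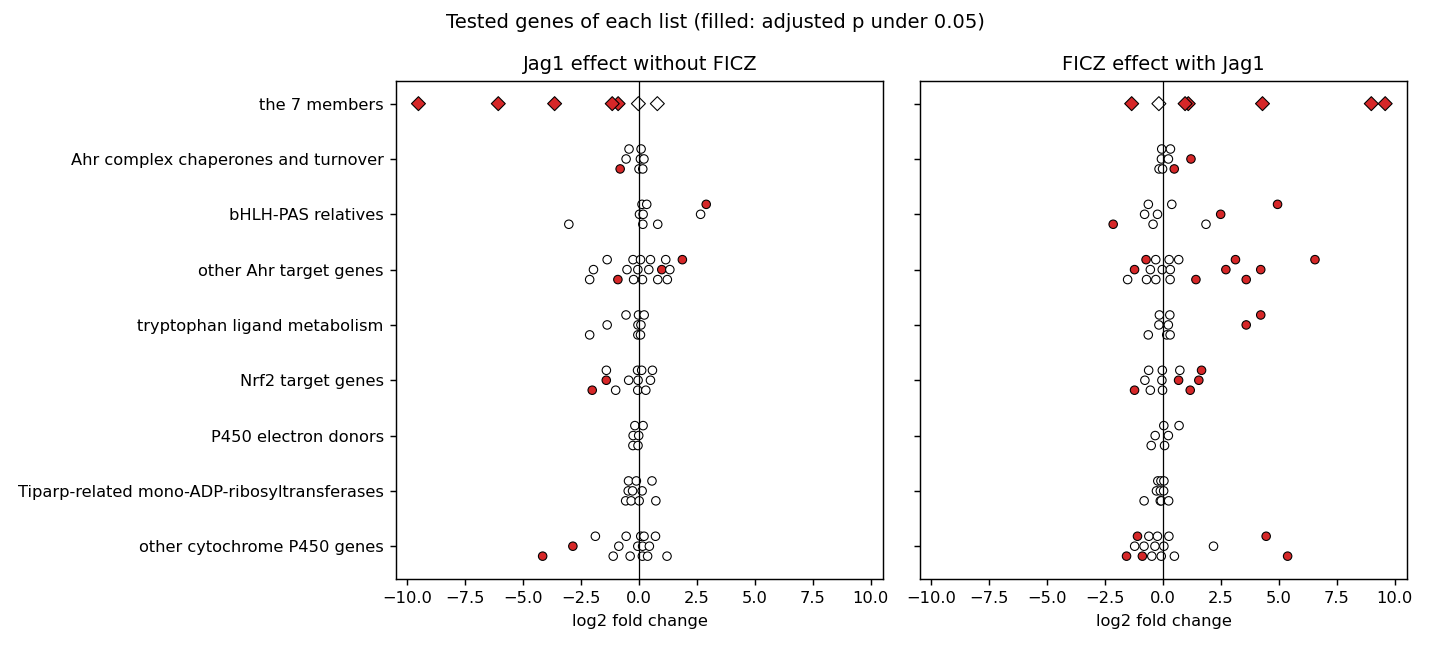
Log2 fold change (x axis) of each tested gene of 8 lists and of the 7 members (rows), for Jag1 without FICZ (left) and FICZ with Jag1 (right), filled where the adjusted p was under 0.05. The members reach −9.50 and 9.59, whereas the other Ahr target genes lie on both sides of 0 in both panels.

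The genes most like each member over the 11 libraries were named by Pearson's r of log2 values among 10914 genes with a mean of at least 50 normalised counts, as a description, since libraries of a group share their treatment. For Cyp1a1 these were Cd96 (r 0.985), Dnm3 (0.981), Bicdl1 (0.98), Itga2b (0.979) and Cebpe (0.979), and for Cyp1b1 they were Nt5e (0.976), Slco2b1 (0.975), Adgrg3 (0.975), Tns4 (0.974) and Hgfac (0.972). Nqo1 was nearest to Me1 (0.963), a member of the Nrf2 list, then Rbmx, Scn4b, Peg10 and Etv4 (0.949 to 0.961). Tiparp was nearest to Fcgr3 (0.975), Hic1 (0.974), Fam3c, Unc5b and Treml2, and Ahrr to Camkk2 (0.972), Fam234b, Pik3cd, B3galnt2 and Fam98a. Ahr was nearest to Elovl5 (0.977), Bach1 (0.973), Mideas, Ppfibp1 and Ciita (0.966), and Arnt to Snx13 (0.966), Fam199x, Dck, Fnip1 and Fem1c. No gene was named for more than 1 member.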

How the data were processed

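The deposited table gives, per the file headers and labels, a signal for each Ensembl gene, which is a read count normalised by the authors with DESeq2. The authors quantified reads with salmon against a mouse transcript model (GRCm39) and summed them to genes with tximport. Values are not whole reads and cannot enter a count model, as 52.0% to 57.6% of low values were whole multiples of the worth of 1 read within 0.1 read. For genes with 1 transcript the share was 80.8% to 98.2%. Read estimates and floors cover counting error only.

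Groups came from the sample titles. Genes with at least 10 normalised counts in at least 2 of the 11 libraries (13095) were fitted on log2(value + 1) with limma 3.58.1 (trend, R 4.3.3, 6 residual degrees of freedom, all groups, no covariate, two-sided, Benjamini-Hochberg over all genes of each comparison), and called at an adjusted p under 0.05. A fold change on this scale understates that of low genes. The fit was tested on simulated data. Levels between genes were set per kilobase of all annotated exons (GENCODE mouse release 39), and ratios between members also per kilobase of the longest transcript.

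Members and lists were chosen with earlier results of these data known. Members are named throughout, together with up to 5 called genes of each list and comparison with the greatest change, and for each member the 5 genes of highest correlation. Same-numbered libraries of the groups with Jag1 or FICZ besides TGFβ and IL-34 share experiment codes in the sample descriptions, so these numbers pair. Between those with Jag1, without and with FICZ, deviations from the group means were weakly correlated (r of 0.153, 0.122 and 0.166). Between those with FICZ, without and with Jag1, r was 0.0591 and 0.0578. Libraries of unlike number were not compared, so these values do not test the pairing. The numbers of TGFβ/IL-34 do not follow the codes. The code of 1 library differed between its description and the authors' sample sheet. Alternatives were quantile normalisation, pseudocounts of 0.5 and 4, no filter or a filter of 50, only the groups compared, array weights, blocks for replicate, experiment or flow cell, and each library left out. The wider windows and the block by the sample sheet were added after seeing the data. One list of genes is not reported here.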

Additional observations from a re-analysis of the deposited data

Results flagged for a closer look

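In 2 genes the FICZ effects with and without Jag1 differed in the test of the difference itself. The effect of FICZ on Cyp1b1 was 8.547 log2 units greater with Jag1 than without it (9.59 against 1.04), and that on Cyp1a1 was 4.407 units greater (8.99 against 4.59). With Jag1 and no FICZ both genes were near 0 (at most 4.76 and 0.985 normalised counts), so the size of each difference depends on the pseudocount, and with a pseudocount of 4 it was 7.63 for Cyp1b1 and 2.69 for Cyp1a1.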

How the results depend on the processing

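Each member was tested in 7 comparisons, and over the alternatives 721 of 803 member results kept their direction and side of the threshold, 42 lost the call, 23 gained it and 17 changed sign, none of them a called one. The members' calls for FICZ with Jag1 numbered 6 under the replicate block, as without it. Where a count or sign moved, the cause was not tested. The number of all genes called ranged more widely over the alternatives, from 195 to 2627 for Jag1 without FICZ, 0 to 5734 for FICZ without Jag1, 35 to 3558 for both, 1389 to 4123 for FICZ with Jag1, 0 to 5827 for Jag1 with FICZ, 8 to 5497 for the interaction and 1645 to 4318 for TGFβ/IL-34 with Jag1, and the upper values of the FICZ, Jag1 with FICZ and interaction counts came from the fit that left replicate 1 as the lone TGFβ/IL-34/FICZ library.

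With single libraries left out, the members called numbered 2 to 4 for Jag1 without FICZ (5 in all libraries), 0 to 4 for FICZ without Jag1 (1), 0 to 1 for both (1), 0 to 4 for Jag1 with FICZ (0) and 1 to 5 for the interaction (2). The upper member counts for FICZ without Jag1, Jag1 with FICZ and the interaction came from the same lone-library fit as the upper counts of all genes. For FICZ without Jag1, 0 members were called with array weights, with only the groups compared, and with a replicate block, a flow cell block or a block by the experiment code of the authors' sheet. Array weights gave 2 members for both and 1 for the interaction, and a pseudocount of 4 gave 1 for Jag1 with FICZ. For TGFβ/IL-34 with Jag1 (3), the count was 5 with array weights and with the flow cell block, and 1 with the replicate block and with the block by described experiment code. For all genes only the range over the settings is given here, not the count in each. The member counts by setting are therefore a description. The promoter letters were in 5 windows as GCGTG and in 1 as TNGCGTG.

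The sign changes were in log2 differences not called in the fit to all libraries, and no value of changed sign was called. The range ends of 1.21, 0.76, −0.48, 0.70 and 0.75 below came from the fit that left replicate 1 as the lone TGFβ/IL-34/FICZ library. Arnt in Jag1 without FICZ was 0.0015 and 0.011 with the blocks by sheet and described code and −0.12 to 0.13 with single libraries left out. Arnt in TGFβ/IL-34 with Jag1 was −0.071 with array weights, −0.028 with the described code block, −0.020 with the replicate block, and −0.079 to 0.17 with libraries left out. The Ahr interaction was −0.055 with the described code block and −0.54 to 1.21 with libraries left out, and the Arnt interaction −0.086 to 0.76. Ahrr for FICZ without Jag1 was 0.025 with the flow cell block and −0.48 to 0.27 with libraries left out. For Jag1 with FICZ, Ahrr was −0.053 to 0.70 and Arnt −0.10 to 0.75 with libraries left out. Cyp1b1 for both was −0.13 with the sheet code block. Levels near 0, as of Cyp1a1 with Jag1, are limited by reads.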
